A study of Mus musculus with 8 samples.

Results

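The collagen genes were taken from the counts as every gene whose Entrez identifier maps to a mouse symbol made of Col, a number, a and a number. This rule found 44 genes among 27179 genes counted. By the structure of their products they fall into 11 fibrillar collagens, 6 basement membrane collagens (the alpha chains of type IV), 9 FACIT collagens, which are fibril-associated collagens with interrupted helices, and 18 others. Of the 44, 41 passed the filter on low counts and were tested. Col19a1, Col10a1 and Col6a4 held 24, 31 and 23 counts over all libraries and were not tested.

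Collagens are secreted proteins whose alpha chains wind around each other into a helix, and many form only as fixed combinations of chains from different genes. Fibrillar collagens such as types I and III carry the tensile load of tissue, type IV builds the sheet of the basement membrane around cardiomyocytes and vessels, FACIT collagens sit on fibril surfaces, and type VI forms beaded filaments near cells. In the heart, fibroblasts are the main source of fibrillar collagens, while endothelial and mural cells contribute much of type IV, and excess fibrillar collagen is the hallmark of fibrosis.

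The study asked which transcripts of neonatal cardiomyocytes (NCMs) differ after exposure to diesel exhaust (DE) rather than filtered air (FA) in utero. Dams were C57Bl/6J mice mated in FA and then assigned to FA or DE from E0.5 to E17.5. The DE exposure was not continuous but ran for part of the day on weekdays. Each of the 8 libraries held poly-A RNA of NCMs from the heart of 1 male at PND0, with 4 libraries from FA offspring (replicates 2, 3, 4 and 6) and 4 from DE offspring (replicates 1, 3, 5 and 7). No transgene or agent other than FA or DE separates the groups, and all hearts were trimmed of atria and vessels, dissociated with Liberase, and pre-plated in Ara-C so that fibroblasts could attach and be left behind. NCMs obtained in this way are enriched, not pure, and the litters of the hearts are not given.

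Library totals ran from 17943024 to 39839737 counts. The cardiomyocyte markers Tnnt2, Actc1 and Ryr2, which encode sarcomere proteins and the calcium release channel, stood at means of 8234, 12828 and 2024 CPM (counts scaled to the normalized size of each library) in FA and 7895, 11141 and 1318 CPM in DE. The sample names carry a prefix, 11 for all FA libraries and DE replicates 1 and 7, and 12 for DE replicates 3 and 5. What the prefix marks is not stated, and FA holds 1 prefix only. Of all collagen genes tested, 26 of 41 had their lowest CPM in FA replicate 3 and 26 of 41 had their highest in DE replicate 1.

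Summed over the 44 genes, collagen counts made up 0.651%, 0.461%, 0.661% and 0.632% of the counts in FA replicates 2, 3, 4 and 6, and 1.08%, 0.972%, 0.690% and 0.941% in DE replicates 1, 3, 5 and 7. All 4 DE libraries lay above all 4 FA libraries, although DE replicate 5 was only just above FA replicate 4. The means were 0.601% ± 0.0944 (SD, n = 4) in FA and 0.922% ± 0.167 (SD, n = 4) in DE. Counting error was far smaller than this spread, as the 95% Wilson interval of FA replicate 3, the lowest library, ran from 0.458% to 0.464%. Because these are bulk samples, a higher number of collagen-producing cells and more collagen RNA in each cell cannot be told apart.

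**Figure D1:**
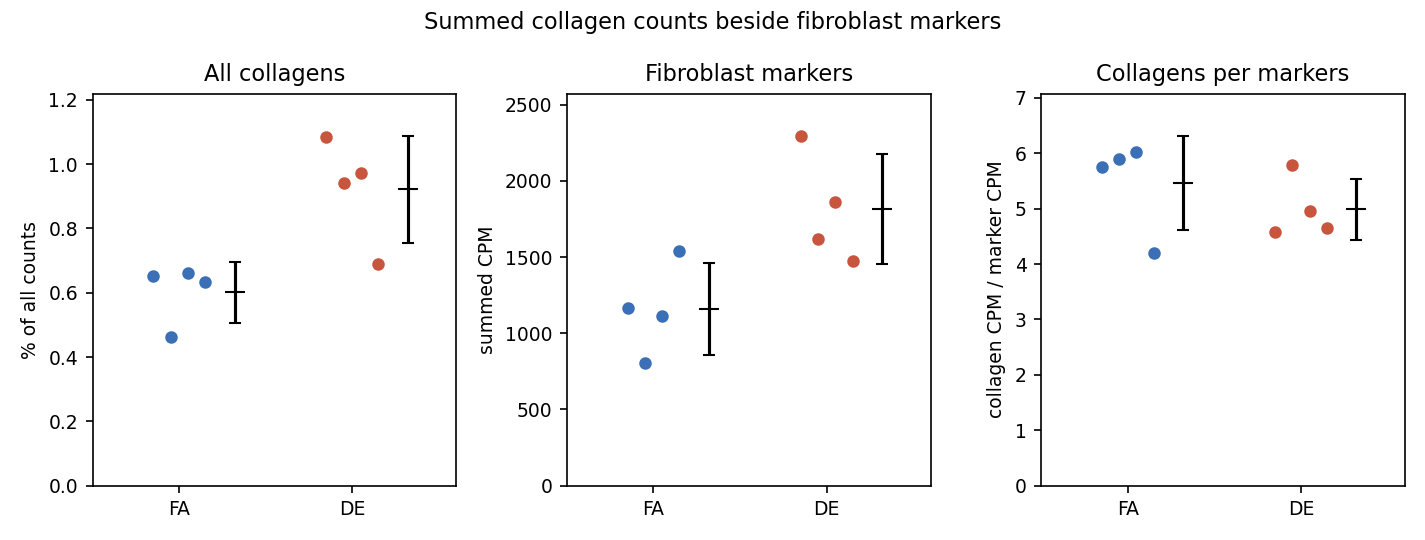
Each point is 1 library, and bars give the mean with the SD of 4 libraries; the panels show the summed counts of 44 collagen genes as a percentage of all counts, the summed CPM of 12 fibroblast markers, most of it Postn, and the collagen CPM per CPM of that sum. The collagen share did not overlap between FA and DE, while both other panels overlap.

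A few chains held most of these counts. Col4a1 and Col4a2, which assemble into the common type IV collagen, took 22.2% and 15.8% of all collagen counts, and Col3a1, Col1a1 and Col1a2 took 17.4%, 9.91% and 7.09%. Per kilobase of exon, levels in FA fell in the order Col4a1 with 219 ± 32.4 CPM, Col3a1 with 182 ± 43.4, Col4a2 with 162 ± 18.6, Col1a1 with 83.5 ± 15.4 and Col1a2 with 74.5 ± 14.4 CPM per kb (SD, n = 4). The intervals of 1 SD overlapped between neighbours in this order, except between Col4a2 and Col1a1. In DE the same 5 genes had means of 296, 291, 214, 161 and 123 CPM per kb. Fibrillar collagens made up 39.3% ± 2.22 of collagen counts in FA and 44.5% ± 3.67 in DE, and type IV 44.4% ± 2.56 and 39.6% ± 4.34 (SD, n = 4), so that type IV was the larger class in FA on average and the fibrillar collagens in DE. The fibrillar share ran from 36.8% to 41.8% in FA and from 41.9% to 49.9% in DE, just without overlap, while the ranges of type IV overlapped.

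Between DE and FA, 6 of 41 tested collagens (14.63%) were called higher in DE and 1 was called lower. Calls came from the quasi-likelihood test of edgeR, adjusted by Benjamini-Hochberg over the 14966 genes tested, and needed an adjusted p no larger than 0.05 together with a difference of at least 25%. Over all tested genes, 5.8% were called either way, 3.58% higher and 2.22% lower. The genes called higher were the fibrillar collagens Col1a1, Col27a1, Col5a1 and Col5a3, the FACIT collagen Col16a1, and Col26a1. The single gene called lower was Col28a1. The other 34 did not pass. The number of collagens called higher was 2 when DE replicate 3, FA replicate 3 or FA replicate 4 was left out, where 1.04%, 1.39% and 0.796% of all tested genes were called higher. Leaving out FA replicate 6 gave 3 collagens and 3.25% of all genes, and leaving out DE replicate 5 gave 8 and 2.38%. DESeq2 called 13 collagens higher and 6.21% of all genes. The collagen count and the share over all genes thus fell together in the first 3 of these fits and went up together by DESeq2. No collagen was called higher, and 0.0601% of all genes were, when the level of fibroblast markers was added to the fit, as described further on.

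The log2 fold change of DE against FA was above 0 for 34 of the 41 and below 0 for 7. The median was 0.43, beside 0.0037 over all genes tested. The 4 groups differed in their medians, which were 0.69 for the fibrillar, 0.02 for the basement membrane, 0.56 for the FACIT and 0.34 for the other collagens. In 8 collagens all DE libraries lay above all FA libraries, and in 1 all lay below, where the background over all tested genes was 7.43% and 7.26%. At an unadjusted p of 0.05, 20 of the 41 collagens passed, 19 of them higher in DE, where 25.6% of all tested genes passed, 13.4% higher and 12.2% lower. Without FA replicate 3 the median over collagens was 0.34, and without DE replicate 1 it was 0.34 with 27 collagens above 0 and 13 below.

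**Figure D2:**
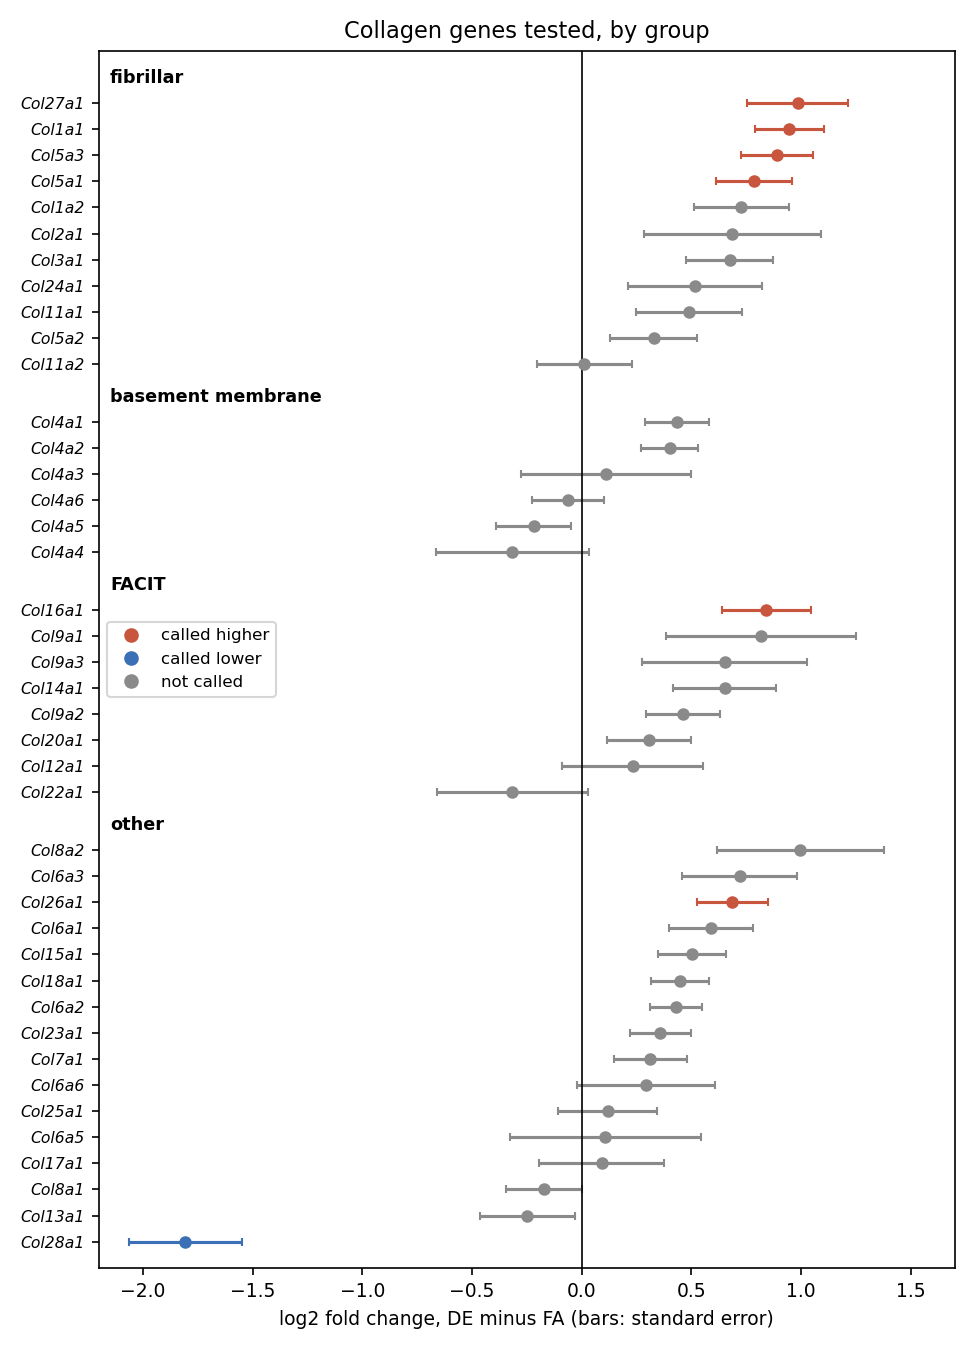
Points give the log2 fold change of DE against FA for each of 41 tested collagen genes and bars its standard error, with 4 libraries per group; red marks genes called higher, blue the gene called lower and grey genes not called. All 11 fibrillar points lie to the right of 0 in this fit, the basement membrane points lie on both sides, and Col28a1 stands alone at -1.81.

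The fibrillar collagens all had a log2 fold change above 0, from 0.01 to 0.98, and 4 of the 11 were called. With length and GC offsets, or with prefix 11 only, 10 of the 11 lay above 0. Col1a1 (chr11:94936224-94953042, GRCm38.p6) encodes the alpha chain present as a pair in each molecule of type I collagen, the main collagen of scars. It stood at 609, 385, 490 and 497 CPM in FA replicates 2, 3, 4 and 6 and at 1174, 975, 780 and 887 CPM in DE replicates 1, 3, 5 and 7. The groups did not overlap, with DE replicate 1 the highest library and FA replicate 3 the lowest. The log2 fold change was 0.95 (SE 0.16), with an adjusted p of 0.00874 by edgeR's quasi-likelihood test, and the call held with any 1 library left out.

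Type V collagen nucleates type I fibrils and sets their diameter, and 2 of its 3 chains were called. Col5a1 (chr2:27886381-28039510) had 288, 183, 280 and 228 CPM in FA replicates 2, 3, 4 and 6 and 529, 410, 317 and 430 CPM in DE replicates 1, 3, 5 and 7. The highest FA library lay below the lowest DE library. Its log2 fold change was 0.78 (SE 0.17, adjusted p = 0.0279 by edgeR's quasi-likelihood test), and the call was lost without FA replicate 3, 4 or 6 or DE replicate 3 or 7, with an adjusted p of at most 0.0692. The rarer chain Col5a3 (chr9:20770050-20815117) had 10.9, 6.58, 11.5 and 9.79 CPM in FA and 19.5, 19.3, 15.3 and 17.8 CPM in DE, in the same order of replicates. These groups were clear of each other, and the log2 fold change of 0.89 (SE 0.17, adjusted p = 0.0138, edgeR's quasi-likelihood test) held its call without any 1 library. Col5a2, the remaining chain, was not called, with 231 ± 32.2 CPM in FA against 290 ± 89.7 CPM in DE (SD, n = 4) and an adjusted p of 0.318 in the same edgeR fit.

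Col27a1 (chr4:63214009-63334991), a fibrillar collagen best known from cartilage, had 15.2, 7.52, 14.4 and 9.79 CPM in FA replicates 2, 3, 4 and 6. In DE replicates 1, 3, 5 and 7 it had 19.1, 31.8, 23.1 and 19.2 CPM. All DE libraries lay above FA, and DE replicate 3 stood highest. The difference was 0.98 on the log2 scale (SE 0.23, adjusted p = 0.0342 by edgeR's quasi-likelihood test). It was called in 3 of the 8 fits that left 1 library out, and lost without FA replicate 3, 4 or 6 or DE replicate 3 or 5, where the adjusted p reached 0.0968. Among the libraries with prefix 11 alone its log2 fold change was 0.69 (adjusted p = 0.166 by edgeR).

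**Figure D3:**
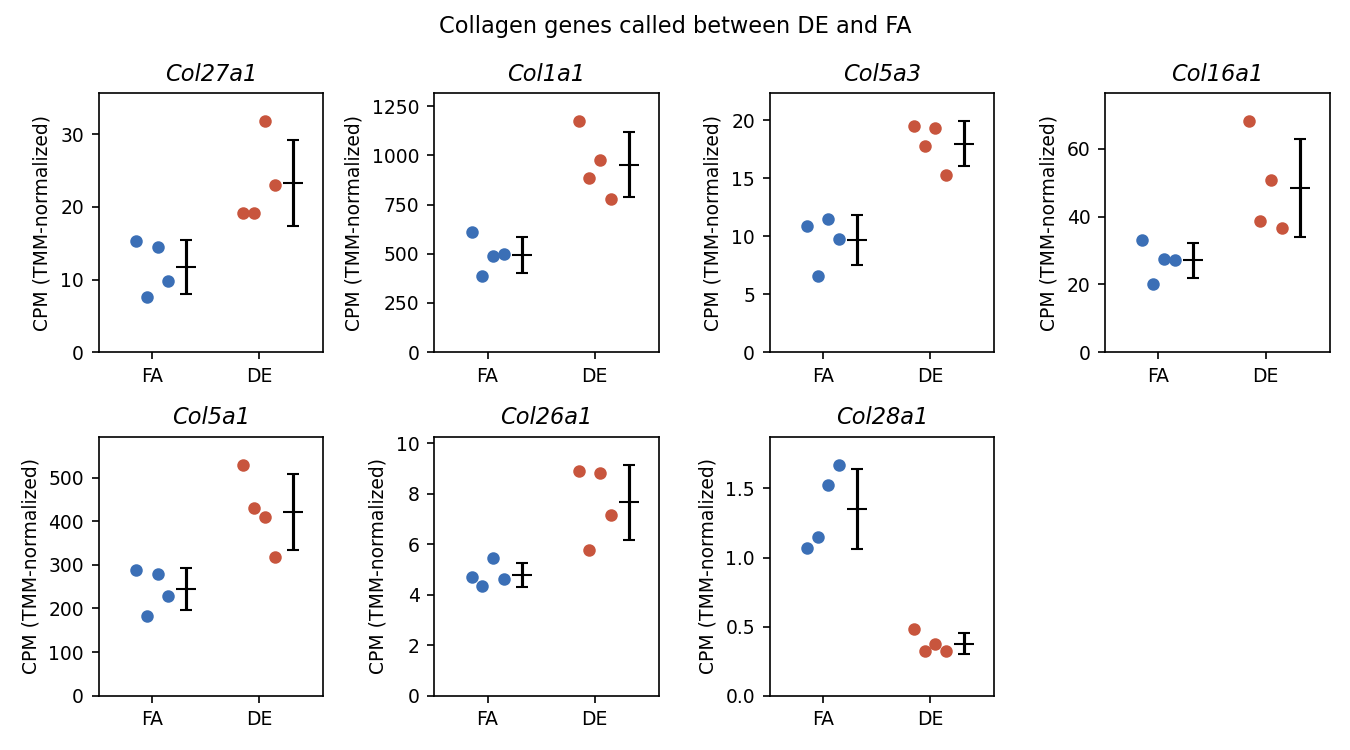
Points give the CPM of each library in FA (blue) and DE (red) for the 7 collagen genes that were called, and bars the mean with the SD of 4 libraries; each vertical axis starts at 0. FA and DE do not overlap in any of the 7 panels, and Col28a1 is the only gene in which DE lies lower.

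The most abundant fibrillar transcript, Col3a1, which forms thin fibrils together with type I collagen, was not called. It had 1054, 676, 1077 and 1249 CPM in FA replicates 2, 3, 4 and 6 and 2109, 1515, 1211 and 1641 CPM in DE replicates 1, 3, 5 and 7, so that DE replicate 5 fell below FA replicate 6. Its log2 fold change of 0.67 (SE 0.20) had an adjusted p of 0.0677 in the edgeR fit. Col1a2, the partner of Col1a1 in type I collagen, had 461, 287, 414 and 432 CPM in FA and 944, 636, 435 and 626 CPM in DE in the same order. DE replicate 5 lay within the FA range, and the log2 fold change of 0.73 (SE 0.21) had an adjusted p of 0.0693 in that fit. Without DE replicate 5, Col3a1 and Col1a2 passed, with adjusted p of 0.0487 and 0.0312, as they did by DESeq2, with 0.0157 and 0.0152.

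The remaining fibrillar collagens were not called either. Col2a1, the main collagen of cartilage, had 1.05 to 2.49 CPM in FA and 0.959 to 4.50 CPM in DE, with a log2 fold change of 0.69 (SE 0.40, adjusted p = 0.307 by edgeR). Both the lowest and the highest of the 8 values were in DE. The log2 fold changes of the other 3, which are Col11a1, Col24a1 and Col11a2, were 0.49, 0.51 and 0.01.

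Promoter sequence was available from RefSeq (GRCm38.p6) for 35 of the 44 collagens and was described over 250 bases before the listed start. Windows for Col1a1, Col2a1, Col4a3, Col5a2, Col9a3, Col12a1, Col14a1, Col22a1 and Col26a1 were not in the table. Shown are a called fibrillar gene, an uncalled fibrillar gene and a type VI chain, 5′ to 3′ on the strand of the gene, as bases that lie outside the gene's own span. Capitals mark the letters CCAAT (reverse complement ATTGG), the letters GGGCGG (reverse complement CCGCCC) and the letters TATAAA (reverse complement TTTATA), which were searched on both strands.
Col5a3: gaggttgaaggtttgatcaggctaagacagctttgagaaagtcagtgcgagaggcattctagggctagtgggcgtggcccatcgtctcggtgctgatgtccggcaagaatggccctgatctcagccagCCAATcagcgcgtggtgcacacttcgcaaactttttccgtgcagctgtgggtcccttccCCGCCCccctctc
Col3a1: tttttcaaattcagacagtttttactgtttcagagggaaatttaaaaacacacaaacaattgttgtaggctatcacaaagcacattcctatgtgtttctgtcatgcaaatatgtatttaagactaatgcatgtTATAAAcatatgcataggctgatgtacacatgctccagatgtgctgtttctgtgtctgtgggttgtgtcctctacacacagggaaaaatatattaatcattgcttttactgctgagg
Col6a2: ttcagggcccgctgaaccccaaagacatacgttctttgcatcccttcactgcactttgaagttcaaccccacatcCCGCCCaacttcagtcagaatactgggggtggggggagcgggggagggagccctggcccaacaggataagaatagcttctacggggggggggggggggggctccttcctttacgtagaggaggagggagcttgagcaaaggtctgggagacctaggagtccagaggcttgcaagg

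The Col5a3 stretch is 200 bases on the minus strand (chr9:20815118-20815317), the Col3a1 stretch 250 bases on the plus strand (chr1:45311288-45311537) and the Col6a2 stretch 250 bases on the minus strand (chr10:76623631-76623880). CCAAT, the core of the site read by the factor NF-Y, was found in 12 of 35 collagen windows (34.29%) and in 34.5% of the 27025 genes with a window. GGGCGG, the core read by Sp1, was in 21 (60%) against 32.92%, and TATAAA in 5 (14.29%) against 12.98%. Median GC content was 59.2% in the collagen windows and 52% in all windows. None of these letters overlap each other in the stretches shown, and a match here is a description of the letters only.

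Over all 8 libraries, 3 basement membrane collagens had a log2 fold change above 0 and 3 below. Among the libraries with prefix 11 alone all 6 lay above 0, with a median of 0.31 against 0.02, and all 6 also did so with prefix as a term. Col4a1 (chr8:11198423-11312889) had 1577, 1171, 1654 and 1403 CPM in FA replicates 2, 3, 4 and 6 and 1930, 2126, 1508 and 2270 CPM in DE replicates 1, 3, 5 and 7. Col4a2 (chr8:11312805-11449287), transcribed away from it on the other strand, had 1093, 870, 1143 and 1074 CPM in FA and 1329, 1528, 1105 and 1555 CPM in DE in the same order. For both genes DE replicate 5 lay within the FA range and the other 3 DE libraries above it. The log2 fold changes were 0.43 (SE 0.15, adjusted p = 0.0998) and 0.40 (SE 0.13, adjusted p = 0.0910) by edgeR's quasi-likelihood test. The spans of the 2 genes overlap at their starts, and the strand setting of the counting is not given in the sources used here.

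Col4a5, an X-linked type IV chain of specialised basement membranes, lay on the other side of 0. It had 231, 168, 243 and 168 CPM in FA and 211, 147, 138 and 200 CPM in DE, with a log2 fold change of -0.22 (SE 0.17, adjusted p = 0.446 by edgeR). Its sign changed to 0.02 when the comparison was held to libraries with prefix 11. Col4a3, Col4a4 and Col4a6 had log2 fold changes of 0.11, -0.32 and -0.06. None of the 6 genes was called and 2 passed an unadjusted p of 0.05, the pair Col4a1 and Col4a2, both higher in DE, beside 13.4% of all tested genes passing higher. By DESeq2, Col4a2 was called (adjusted p = 0.0441), and with length and GC offsets Col4a1 was (adjusted p = 0.0270 by edgeR).

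Among the FACIT collagens, 1 of 8 tested was called and 7 had a log2 fold change above 0. Col16a1 (chr4:130047817-130099277), which is found at the edge of fibrils and near basement membranes, had 33.2, 20.2, 27.5 and 27.3 CPM in FA replicates 2, 3, 4 and 6 and 68.2, 50.8, 36.6 and 38.7 CPM in DE replicates 1, 3, 5 and 7. The groups did not overlap, with DE replicate 1 well above the others. On the log2 scale the difference was 0.84 (SE 0.20, adjusted p = 0.0370 by edgeR's quasi-likelihood test). Leaving out DE replicate 3 or any of the 4 FA libraries ended the call, at an adjusted p of up to 0.0991.

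Col14a1, which sits on type I fibrils in dense connective tissue, had 67.4 ± 16.8 CPM in FA against 106 ± 34.3 CPM in DE (SD, n = 4). Its log2 fold change of 0.65 (SE 0.23) was not called (adjusted p = 0.116 by edgeR), but was with length and GC offsets (adjusted p = 0.0211) and with prefix as a term (0.0400). Col12a1, a close relative, ran from 31.0 to 74.7 CPM in FA and from 43.7 to 116 CPM in DE, where DE replicate 1 alone stood above the FA range. Its log2 fold change was 0.23 (SE 0.32, adjusted p = 0.679 by edgeR), and -0.18 without DE replicate 1. Col9a1, a cartilage FACIT, had 2.09 to 4.55 CPM in FA and 2.35 to 10.4 CPM in DE, with a log2 fold change of 0.82 (SE 0.43, adjusted p = 0.256 by edgeR). Its 2 highest values were in DE replicates 1 and 3, the 2 libraries that were also highest for Col2a1.

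All 5 tested type VI chains had a log2 fold change above 0, from 0.11 to 0.72, and none was called. By an unadjusted p of 0.05, 3 of the 5 passed, all higher in DE, beside 13.4% of all tested genes passing higher. Col6a2 (chr10:76595756-76623630) came closest, with 201, 190, 219 and 255 CPM in FA replicates 2, 3, 4 and 6 and 328, 293, 256 and 287 CPM in DE replicates 1, 3, 5 and 7. DE replicate 5 lay just above FA replicate 6, so the groups did not cross. The log2 fold change was 0.43 (SE 0.12, adjusted p = 0.0554 by edgeR), and DESeq2 called it (adjusted p = 0.0107) and Col6a1 (adjusted p = 0.0348). Col6a1, its neighbour on the chromosome and partner in the molecule, had 122 ± 25.6 CPM in FA against 183 ± 44.4 CPM in DE (SD, n = 4), and a log2 fold change of 0.59 (SE 0.19, adjusted p = 0.0898 by edgeR). Col6a3, the large chain that completes the molecule, had 116 ± 33.9 and 192 ± 67.3 CPM and a log2 fold change of 0.72 (SE 0.26, adjusted p = 0.119 by edgeR), which was called with length and GC offsets (adjusted p = 0.0168).

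Of the other 11 tested members, Col26a1 was called higher and Col28a1 lower. Col26a1 (chr5:136741759-136883376), a small collagen with short helical parts, had 4.71, 4.34, 5.47 and 4.62 CPM in FA and 8.90, 8.81, 7.16 and 5.76 CPM in DE, in the order of replicates used above. DE replicate 7 lay just above FA replicate 4 and the other 3 DE libraries well above. This gave a log2 fold change of 0.69 (SE 0.16, adjusted p = 0.0353 by edgeR's quasi-likelihood test). This call held in 1 of the 8 fits without 1 library, the one without DE replicate 7, and the adjusted p reached 0.112 without FA replicate 2. Col26a1 was also not called with prefix as a term (adjusted p = 0.102 by edgeR) or with prefix 11 only (0.133).

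Col18a1 (chr10:77052178-77166530), a basement membrane proteoglycan whose end fragment is endostatin, had 195 to 226 CPM in FA and 231 to 368 CPM in DE, with no overlap. It was not called, at a log2 fold change of 0.45 (SE 0.13, adjusted p = 0.0698 by edgeR). Of the alternatives, 5 called it higher, among them DESeq2 (adjusted p = 0.0247), the length and GC offsets (0.0450) and the fit without DE replicate 5 (0.0401). Col8a2, a network-forming collagen of the corneal endothelium and vessels, had the largest log2 fold change above 0 of all 41, 1.00 (SE 0.38), and was not called (adjusted p = 0.135 by edgeR). It ran from 0.747 to 1.76 CPM in FA and from 1.07 to 3.90 CPM in DE, and DE replicates 1 and 3 were again the 2 highest libraries.

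Col28a1 (chr6:7997100-8193709), a low-abundance collagen with von Willebrand factor A domains that has been described around peripheral glia, moved in the opposite direction. It had 40, 23, 27 and 34 counts in FA replicates 2, 3, 4 and 6 and 16, 13, 13 and 6 counts in DE replicates 1, 3, 5 and 7. Scaled to the libraries, these were 1.07, 1.15, 1.52 and 1.67 CPM in FA and 0.484, 0.373, 0.324 and 0.320 CPM in DE, and the highest DE library was below the lowest FA library. The log2 fold change was -1.81 (SE 0.26), with FA 3.50 times as high as DE and an adjusted p of 0.00335 by edgeR's quasi-likelihood test, the smallest of any collagen. The call held in all 21 alternatives that tested the gene, with an adjusted p of at most 0.0416, and rested on 172 counts in all. Its mean is under 1 CPM, so a filter at that level removed it.

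Of the Schwann cell markers listed, 2 were tested and neither was called. The defining marker Sox10, a transcription factor of glia, was near 0, at means of 0.293 CPM in FA and 0.300 CPM in DE. The part of these cells in the Col28a1 difference was not tested.

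Ratios between 2 chains of the same library do not depend on how libraries were scaled, and 10 ratios were compared. Col5a1 counts per Col5a2 count were 1.17, 1.00, 1.14 and 0.913 in FA replicates 2, 3, 4 and 6 and 1.30, 1.42, 1.68 and 1.55 in DE replicates 1, 3, 5 and 7. The 2 groups did not overlap, with a difference of 0.50 on the log2 scale. Col4a5 per Col4a1 was 0.147, 0.144, 0.147 and 0.120 in FA and 0.110, 0.0692, 0.0918 and 0.0882 in DE, also without overlap and 0.65 lower in DE on the log2 scale (-0.65). Both had an exact two-sided permutation p of 0.0286, the smallest that 4 against 4 libraries allow, and 0.143 after Benjamini-Hochberg adjustment over the 10 ratios, so neither passed.

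For the chains of types I and IV below, the ratios differed less between groups than Col5a1 per Col5a2 and Col4a5 per Col4a1 did. Col1a1 per Col1a2 ran from 1.15 to 1.34 in FA and from 1.24 to 1.79 in DE (exact permutation p = 0.114), a log2 difference of 0.25. Col4a1 per Col4a2 was 1.39 ± 0.0707 and 1.42 ± 0.0461 (SD, n = 4; exact permutation p = 0.400), a log2 difference of 0.03. The ratio of Col8a1 to Col8a2, chains that can assemble together, was 3.88 ± 0.764 in FA and 2.08 ± 1.33 in DE (SD, n = 4; exact permutation p = 0.0857). The remaining 5 ratios had exact permutation p from 0.171 to 0.771.

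**Figure D4:**
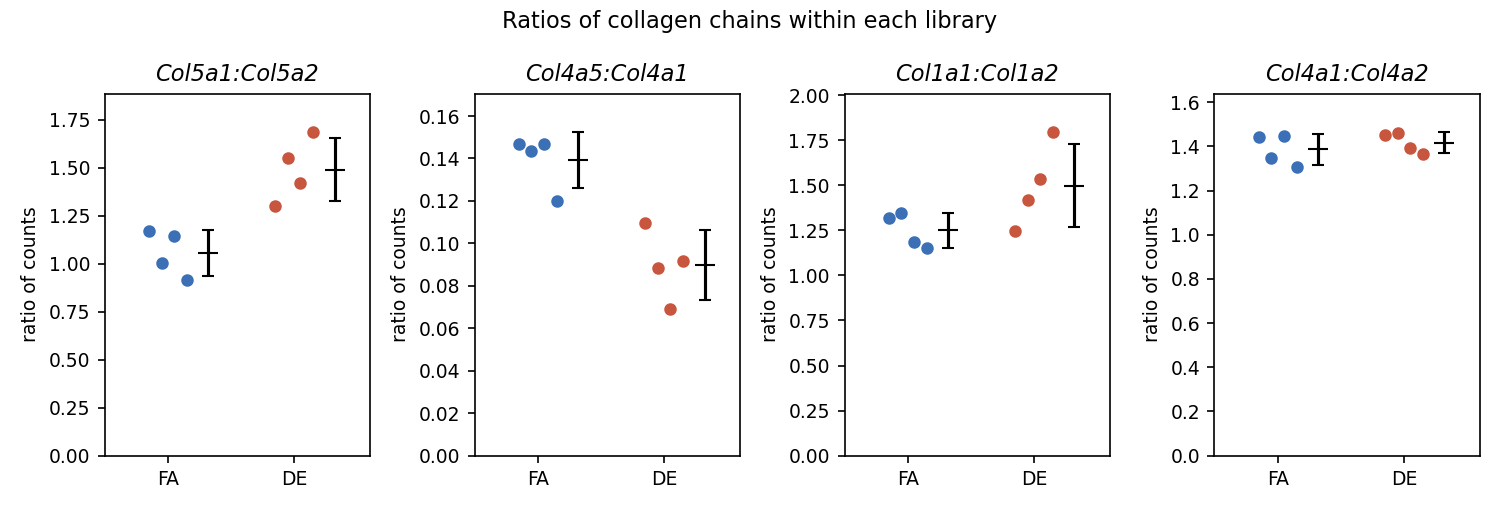
Each point is the ratio of the counts of 2 collagen chains in 1 library, FA in blue and DE in red, with bars for the mean and SD of 4 libraries. Col5a1:Col5a2 lies higher and Col4a5:Col4a1 lower in DE without overlap, while Col1a1:Col1a2 and Col4a1:Col4a2 overlap.

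Collagen chains are hydroxylated and glycosylated, folded and exported, cut, cross-linked, and bound by partners and receptors, and 51 genes of these steps were looked at as a list. Of 49 tested, 6 were called higher (12.24%, beside 3.58% of all tested genes) and 0 lower, and 37 had a log2 fold change above 0, with a median of 0.40. By an unadjusted p of 0.05, 27 passed, 24 of them higher, beside 25.6% of all tested genes passing and 13.4% passing higher. DESeq2 and the likelihood ratio test called 1 each lower. The 6 calls became 2 without FA replicate 2, 3 or 4 or DE replicate 3 (without FA replicate 2, 0.927% of all genes were called higher), 13 without FA replicate 6, and 0 among the libraries with prefix 11 or with the fibroblast marker level in the fit. By step, 2 of 14 genes of hydroxylation and glycosylation were called, 2 of 7 of folding and export, 0 of 7 of propeptide cleavage, 1 of 5 of cross-linking, 1 of 8 fibril partners and 0 of 8 receptors.

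Crtap and P3h3 act in prolyl 3-hydroxylation and lysine modification of collagen in the endoplasmic reticulum. Crtap had 30.2, 33.1, 29.7 and 38.1 CPM in FA replicates 2, 3, 4 and 6 and 50.1, 59.5, 55.1 and 45.7 CPM in DE replicates 1, 3, 5 and 7, with no overlap (log2 fold change 0.68, SE 0.12, adjusted p = 0.00968 by edgeR's quasi-likelihood test). P3h3 had 15.6 to 18.5 CPM in FA and 20.6 to 37.6 CPM in DE (0.79 on the log2 scale, adjusted p = 0.0266 by edgeR). Creb3l1, a membrane-bound transcription factor that drives type I collagen genes in bone, had 13.6 ± 1.38 CPM in FA against 20.4 ± 0.864 CPM in DE (SD, n = 4; log2 fold change 0.59, adjusted p = 0.0111 by edgeR). Its 4 DE libraries were tightly grouped, from 19.2 to 21.1 CPM, and stayed above all FA libraries.

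Serpinh1, the chaperone HSP47 of procollagen, had 285 ± 25.1 CPM in FA against 377 ± 36.5 CPM in DE (SD, n = 4; log2 fold change 0.40, adjusted p = 0.0464 by edgeR). Loxl2, a lysyl oxidase that cross-links collagens including type IV, had 124 ± 16.1 and 182 ± 18.9 CPM (SD, n = 4; log2 fold change 0.55, adjusted p = 0.0260 by edgeR), also with no overlap. Dcn, a small proteoglycan that binds fibrils, had 158 ± 27.9 and 233 ± 37.1 CPM (SD, n = 4; log2 fold change 0.56, adjusted p = 0.0472 by edgeR), and FA replicate 6 lay above DE replicate 5. Dcn, like Lum and Postn, is also 1 of the fibroblast markers used here.

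Markers of other cell types moved with the collagens in part. Of 12 fibroblast markers, 11 had a log2 fold change above 0, 4 were called higher (Dcn, Dpt, Fbln1 and Thy1), and the median was 0.55. Postn, a matrix protein, made up 57.9% to 64.2% of their summed CPM in FA and 64.6% to 66.3% in DE, so that the sum is mostly the level of 1 gene. Summed, the 12 had 1167, 806, 1112 and 1542 CPM in FA replicates 2, 3, 4 and 6 and 2298, 1859, 1471 and 1621 CPM in DE replicates 1, 3, 5 and 7. Of the defining markers, Dcn was called, while Pdgfra and Tcf21 were not (log2 fold changes 0.47 and 0.28, adjusted p = 0.220 and 0.219 by edgeR). Collagen CPM per summed CPM of these markers was 5.76, 5.90, 6.02 and 4.20 in FA and 4.58, 4.95, 4.66 and 5.78 in DE, so that the groups overlapped. FA replicate 3 was lowest and DE replicate 1 highest for the markers, as for most collagens.

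With the mean log2(CPM + 1) of the fibroblast markers as a further term, a fit added after the counts were seen, no collagen was called higher and Col28a1 was still called lower (log2 fold change -2.23, adjusted p = 0.0268 by edgeR). The median over 41 collagens was then 0.05, with 22 above 0 and 19 below, and the calls over all genes went from 868 to 43. Of the 11 fibrillar collagens, 7 remained above 0, with a median of 0.10, while Col24a1 (-0.45), Col2a1 (-0.29), Col5a2 (-0.24) and Col11a1 (-0.22) lay below. Col4a3 also changed sign, to -0.95. The log2 fold change of Col27a1 was 0.94 (adjusted p = 0.274 by edgeR), near its value of 0.98 without the term. Those of the other 5 were smaller than without it, at 0.61 for Col5a3, 0.58 for Col1a1, 0.46 for Col26a1, 0.45 for Col5a1 and 0.27 for Col16a1, with adjusted p from 0.224 to 0.578 by edgeR. The marker level itself is higher in DE on average, so this term and exposure cannot be told apart fully with 8 libraries.

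The other marker lists showed few calls. None of 10 endothelial, 7 mural, 8 epicardial, 3 tested chondrocyte or 5 tested leukocyte markers was called, with 5, 1, 2, 1 and 2 of them passing an unadjusted p of 0.05, beside 13.4% of all tested genes passing higher and 12.2% passing lower. The endothelial, chondrocyte and leukocyte markers that passed were higher in DE, and the mural and epicardial markers that passed were lower. Of the endothelial markers, 9 of 10 had a log2 fold change above 0, with a median of 0.32. Endothelial markers summed to 1046 to 1392 CPM in FA and 1155 to 1717 CPM in DE, and mural markers to 493 to 712 and 430 to 618 CPM. Chondrocyte markers summed to 7.52 to 18.7 CPM in FA and 9.13 to 39.5 CPM in DE with DE replicate 1 highest, the library among the highest for Col2a1, Col9a1 and Col8a2. The defining marker Acan had 2.79 to 11.7 CPM in FA and 2.57 to 27.1 CPM in DE, and Hapln1 2.69 to 4.67 and 2.44 to 8.26 CPM, both highest in DE replicate 1, whereas Matn1 was at 0 CPM in all FA libraries and at a mean of 0.0134 CPM in DE. Of 6 erythroid markers 1 was called higher (Slc4a1), and of 9 cardiomyocyte markers Myh7 was called higher and Myh6 lower. Cardiomyocyte markers summed to 70538 to 75918 CPM in FA and 59985 to 69931 CPM in DE. Within that sum, Myh6 went from a mean of 23299 CPM in FA to 14622 CPM in DE, and Myh7 from 10022 to 14494 CPM. Of the 9, 8 had a log2 fold change below 0. By an unadjusted p of 0.05, 4 of the 9 passed, 1 of them higher, beside 25.6% of all tested genes passing. None of the defining markers that follow was called. The endothelial markers Pecam1, Cdh5 and Kdr had log2 fold changes of 0.37, 0.01 and 0.03. Those of the mural markers Pdgfrb, Rgs5 and Myh11 were 0.19, -0.51 and 0.31, and those of the epicardial markers Wt1, Upk3b and Tbx18 were 0.21, 0.06 and -0.50. The leukocyte markers Ptprc, Csf1r and Lyz2 had 0.49, -0.18 and 0.35, and the erythroid markers Alas2 and Hba-a1 had 0.20 and 0.42. Hba-a1 has a near-identical copy, so its counts are uncertain. The part of each of these cell types in the collagen differences was not tested.

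The 6 collagens called higher were also GC-rich, with 58.0% to 61.6% GC in their longest transcript and a median of 60.0%, against 54.8% for the 34 uncalled members and 49.8% for all tested genes with a value. Among 23 collagens with at least 55% GC, 6 were called higher and the median log2 fold change was 0.50. Among 18 collagens under 55% GC, 0 were called higher and the median was 0.18, with 1 called lower. Over all tested genes the same split gave medians of 0.12 and -0.03 and 5.82% and 3.12% called higher. With offsets for the trend of each library along transcript length and GC content, 16 collagens were called higher, the 6 among them, and the median was 0.45. In that fit Col1a1 had a log2 fold change of 0.93, Col27a1 1.04, Col5a1 0.84, Col5a3 0.86, Col16a1 0.76 and Col26a1 0.51. Calls over all genes also went up in it, from 847 to 1562 of 13851 genes, with 5.87% called higher.

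**Figure D5:**
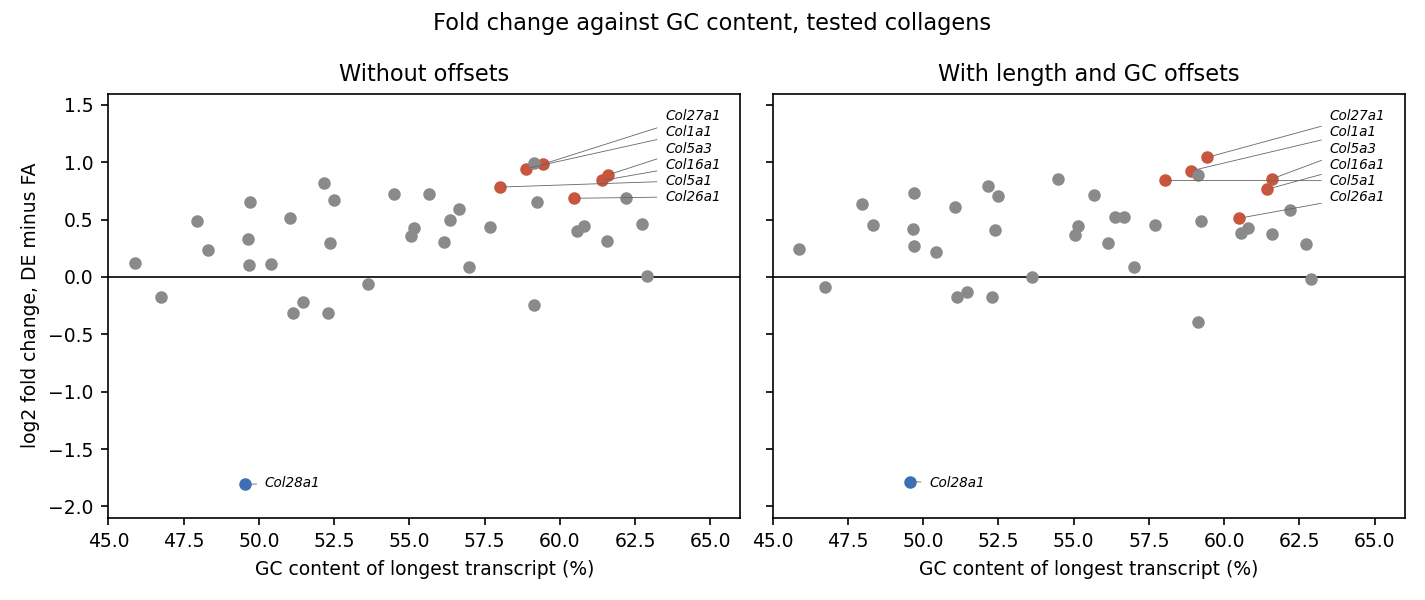
Log2 fold change of DE against FA is plotted against the GC content of the longest transcript for 41 tested collagens, without offsets on the left and with length and GC offsets on the right; colours give the call without offsets (red higher, blue lower, grey not called). All 6 red points lie at 58.0% GC or more in both panels, and they stay above 0 with the offsets.

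Among the 6 libraries with prefix 11, 5 of 40 tested collagens were called higher, namely Col1a1, Col1a2, Col5a1, Col5a3 and Col6a1, and 1 lower. In that fit 0.96% of all tested genes were called higher and 0.785% lower. The comparison held 4 FA and 2 DE libraries. Col1a1, Col5a3 and Col28a1 were the 3 genes whose calls were kept in each fit without 1 library.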

How the data were processed

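Poly-A RNA of NCMs from 8 male PND0 hearts, 4 FA and 4 DE, was sequenced. The authors aligned reads to mm10 with Tophat and the Ensembl v67 transcriptome, marked duplicates without removing them, and deposited raw fragment counts per Entrez gene from featureCounts. Which annotation and strand setting were used in counting, and how reads on several genes were handled, are not given in the sources used here. These settings bear on collagens that overlap other counted genes. Among them are Col4a1 with Col4a2, Col4a3 with Col4a4, Col9a3 with Tcfl5, Col10a1 with Nt5dc1, and the called Col27a1 with the microRNA gene Mir455. The methods give n = 3 per group, while 4 libraries per group were used here. Whether hearts shared a litter is not stated, so p-values measure the spread between these libraries; no 2 libraries of a group agreed within sampling noise (lowest chi-square per gene 5.06). Symbols came from the RefSeq gene table for GRCm38.p6, which named 25275 of 27179 genes.

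Counts were filtered with filterByExpr (minimum count 10), normalized with TMM and compared in edgeR 4.0.16 (functions glmQLFit and glmQLFTest; R 4.3.3), with Benjamini-Hochberg adjustment over 14966 genes. Calls needed an adjusted p-value of at most 0.05 and a difference of at least 25%, following the methods. Chain ratios were tested by exact two-sided permutation in scipy 1.17.1. CPM per kilobase used exon lengths of GENCODE M21. The collagen set and the lists of processing genes and cell type markers were chosen with earlier results of these data known, from general knowledge. Genes named are the called collagens, the 3 highest per kilobase in each of the 4 groups, the 5 uncalled collagens with the largest change, called processing genes, defining and called markers, and Col1a1, Col5a3 and Col27a1, which the study names in a pathway; Col5a2, Col11a1, Col11a2, Col24a1, Col4a3, Col4a4 and Col4a6 were added after their values were seen, to complete their groups, as were Col6a6, Col25a1 and Col9a3, for their change of sign in 1 fit, and Postn and Lum, for their place in 2 lists. Of the defining markers, 3 are not reported here.

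The alternatives were DESeq2 1.42.0, the likelihood ratio test, limma-voom (limma 3.58.1), a 25% difference inside the test, the adjusted p alone, other scalings and filters, length and GC offsets (splines with 5 degrees of freedom), the prefix as a term, prefix 11 only, and each library left out. The fibroblast marker term was added after the data were seen. On simulated data for DE against FA, the quasi-likelihood test recovered 175 of 200 changed genes (87.5%) with 10 false calls among 14847 genes. Of the genes recovered, 99 had been given a change larger than that of any collagen in the main fit. The 87.5% thus does not give the recovery of changes as small as those of the collagens called higher.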

Additional observations from a re-analysis of the deposited data

Results flagged for a closer look

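In each of the 41 tested collagens, the highest and lowest library of each group was set against the others of that group by Dixon's test, 82 groups in all, of which chance alone would single out about 1 in 20. There were 5 such libraries, and 3 were FA replicate 3. Col11a1, a minor fibrillar collagen, had 9.77 CPM there and 19.8 to 21.4 CPM in the other FA libraries. Col5a2, a type V chain, had 183 CPM there against 245 to 250 CPM. Col4a4, a type IV chain, had 2.79 CPM there against 4.57 to 4.80 CPM. Col4a6, also a type IV chain, had 22.2 CPM in DE replicate 1 and 13.6 to 15.1 CPM in the other DE libraries. Col23a1, a transmembrane collagen, had 20.4 CPM in FA replicate 4 and 16.5 to 17 CPM in the other FA libraries. None of the 5 genes was called between DE and FA.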

How the results depend on the processing

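Collagens called higher numbered 6, and 1 with the 25% difference inside the test, 13 by DESeq2, 12 by the likelihood ratio test, 16 with length and GC offsets, 0 with the fibroblast marker term, and 2 to 8 with 1 library left out (2 without FA replicate 3, FA replicate 4 or DE replicate 3, 3 without FA replicate 6). The 1 gene called lower became 0 at a minimum mean of 1 CPM, which removes it, and stayed 1 without any 1 library. Processing genes called higher numbered 6, and 0, 16, 15, 12 and 0 in the same order, 0 with prefix 11 only, 3 with prefix as a term, and 2 to 13 with 1 library left out (2 without FA replicate 2, 3 or 4 or DE replicate 3, 13 without FA replicate 6). Those called lower numbered 0, and 1 by DESeq2, 1 by the likelihood ratio test and 3 with the offsets. Calls over all genes, either way, moved as well, from 868 in the main fit. They numbered 114 with the 25% difference inside the test, 1633 by DESeq2 and 1603 by the likelihood ratio test. With the offsets there were 1562, with the marker term 43, with prefix as a term 448 and with prefix 11 only 260. With 1 library left out they ran from 237 to 1168. The sign of Col4a5 changed to 0.017 with prefix 11 only and 0.021 with prefix as a term. With the marker term, Col14a1 changed to -0.014, Col12a1 to -0.77, Col9a1 to -0.59, Col6a3 to -0.071, Col2a1 to -0.29, Col4a3 to -0.95, Col24a1 to -0.45, Col5a2 to -0.24 and Col11a1 to -0.22, and Col6a6, Col25a1 and Col9a3 also changed sign, to -0.57, -0.36 and -0.035. Col12a1 ran from -0.18 (without DE replicate 1) to 0.40 with 1 library left out. Chain ratios without overlap numbered 2, and 4 with prefix 11 only. Without the 2 most abundant collagens, the collagen share was 0.361% in FA and 0.555% in DE. The cause of these changes was not tested. Scaling by library totals moved the median log2 fold change of all genes to 0.08. No paired analysis was run, because neither the labels nor the methods pair FA libraries with DE libraries. Depth limits the rarest members, as the 3 untested collagens had at most 9 counts in a library and Col28a1 as few as 6.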
